A study of Rattus norvegicus with 4 samples.

Results

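Apolipoproteins are the protein coats of lipoproteins, the particles in which the liver and gut send triglyceride and cholesterol into blood, and hepatic lipase trims those particles at the liver's own capillaries. The array measured 6 such genes, Apoa1, Apoa4, Apob, Apoc1, Apoe and Lipc, with 8 probes of 1936 in all. Members were every probe whose platform annotation gives exactly 1 gene symbol from that set, a rule that used no measured value. Apoa4 and Apoc1 had 2 probes each, and the other 4 genes had 1.

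RNA came from the right lateral liver lobe of male Sprague-Dawley rats of 250 to 300 g, taken 1 h after the common bile duct was tied between the liver hilus and the gut, or after a sham operation in which the duct was exposed but not tied. All rats had a laparotomy under ether and free access to food and water afterwards, and the labels name no genetic change and give no age. Rats were killed in groups of 3 and liver RNA was mixed, so an array compares pools and not animals. The ligated pool carried Cy5 and the sham pool Cy3 on arrays 1 and 3, with the dyes exchanged on arrays 2 and 4. The comparison asks what the blocked bile duct changes in liver mRNA within the first hour.

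ApoA-I is the main protein of high-density lipoprotein and the activator of the plasma enzyme that esterifies cholesterol. ApoA-IV travels on triglyceride-rich particles and high-density lipoprotein, and in rodents it is made by the liver as well as the gut. ApoB is the structural protein of very-low-density lipoprotein, ApoC-I is a small exchangeable apolipoprotein that slows lipase action and particle uptake, and ApoE is the ligand by which receptors take up remnants. Bile carries cholesterol, phospholipid and bile acids out of the liver, and lipoproteins that appear in plasma after a longer bile duct obstruction are known to be abnormal in composition.

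In the RefSeq gene order of the GRCr8 rat assembly, Apoa1 and Apoa4 are separated by 1 gene, Apoc3, and Apoe and Apoc1 by 0 genes, so 4 of the 6 genes lie in the known apolipoprotein clusters. RefSeq promoter windows were matched for 4 of the 6 genes, Apoa4, Apoc1, Apoe and Lipc. Below are the 250 bases before the annotated start of Apoa4, the only one of the 6 genes with a probe past the threshold, and of Lipc, whose estimate was the next lowest. Both are written 5′ to 3′ on the strand of the gene, Apoa4 from chr8:55435529-55435778 (plus strand) and Lipc from chr8:80516286-80516535 (minus strand), with matches to any of the 4 short motifs named next in capitals.
Apoa4: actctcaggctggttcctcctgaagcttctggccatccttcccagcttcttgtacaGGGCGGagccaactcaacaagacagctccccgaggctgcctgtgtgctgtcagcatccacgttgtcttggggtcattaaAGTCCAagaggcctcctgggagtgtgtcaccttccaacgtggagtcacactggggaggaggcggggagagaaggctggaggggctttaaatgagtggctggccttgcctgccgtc
Lipc: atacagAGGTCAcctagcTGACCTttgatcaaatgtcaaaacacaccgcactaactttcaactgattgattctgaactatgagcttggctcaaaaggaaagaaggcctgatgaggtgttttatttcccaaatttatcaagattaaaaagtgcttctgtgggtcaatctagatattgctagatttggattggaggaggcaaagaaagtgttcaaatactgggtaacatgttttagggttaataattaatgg

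The motifs were searched on both strands and were chosen after these sequences had been read. They were AGGTCA, the half-site of many nuclear receptors, its variant AGTCCA, the GC box GGGCGG and the TATA box TATAAA, and none of these matches overlapped another. AGGTCA was in 14.1% of all 33469 rat promoter windows of 250 bases, AGTCCA in 11.6%, GGGCGG in 30.5% and TATAAA in 12.9%. The Apoa4 window held 1 match to AGTCCA, which began 115 bases before the start, and 1 to GGGCGG, which began 194 bases before it. The Lipc window held 2 matches to AGGTCA, on opposite strands, at 244 and 232 bases before the start, and 0 to GGGCGG. These matches describe letters in a window, and the arrays did not measure binding.

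Each deposited value is the log ratio of the array's channels, with no base of the log stated, so differences are given on the deposited log scale. In the labels channel 1 is always the sham pool and channel 2 the ligated pool, and the values are read here as ligated over sham, so that a negative value means less mRNA after ligation. That direction is likely, with the channel order of the labels as its basis, but no label states which channel was divided by which, and under the opposite division every sign for the operation turns. Ratios of this kind give no level of a gene within a sample, so the hepatocyte origin of the RNA could not be checked against marker levels, and in bulk liver fewer cells of a type and less RNA per cell cannot be told apart.

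The arrays as a whole followed the dye. The deposited medians over all probes were -0.88 and -0.73 on arrays 1 and 3 and 0.75 and 0.87 on arrays 2 and 4, and arrays of opposite orientation correlated at r of -0.93 to -0.77 over probes (0.94 and 0.86 for like orientation). Each array was therefore centred on its median and each probe fitted with operation and dye as terms (limma, 4 arrays, Benjamini-Hochberg over 1936 probes, threshold 0.05). On the centred scale 93 probes (4.80%) were lower and 18 (0.930%) higher after ligation. All arrays came from pooled RNA and no label separates RNA extracts, so errors measure the spread between arrays, which may be technical.

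On centred values Apoa4 was the only gene of the set with a lower call, at 1 of its 2 probes. The call was lost without centring (limma adjusted p = 0.120) and after quantile normalization (0.0906). It was lost or held in further settings, which are given at the end. Probe 662 had deposited log ratios of -0.43, -0.44, -0.38 and -0.33 on arrays 1 to 4. All 4 deposited values lay below 0 within a narrow range (SD 0.052), and the dye orientations overlapped. On the centred scale used for the fit, probe 662 had 0.45, -1.19, 0.34 and -1.20, with no overlap between the dye orientations. Its operation log ratio was -0.40 ± 0.08 (SE, n = 4 arrays; limma adjusted p = 0.000646), with a 95% interval from -0.57 to -0.23, which would be 1.32-fold lower if the base is 2. Lower calls were thus made for 1 of the 8 probes, against 4.80% of all probes, and higher calls for 0. In dye contrast, defined below, 7 of the 8 lay above the third quartile of all probes. Of the 484 probes there, 49 were called lower and 6 higher. At an unadjusted p under 0.05, 3 of the 8 probes passed in limma, Apoa4 at both probes and Lipc, against 277 of all 1936.

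Only 3 probes of 1936 had all 4 deposited values at or below -0.328. That cut is the highest value of Apoa4 probe 662 itself, so this probe is 1 of the 3 by construction. The 78.8% of all probes that change sign fully with the dye orientation cannot meet it. The others were the unnamed probe 1174, with -0.43 as its highest value, and probe 1818 of Prdx6, a peroxiredoxin that removes peroxides, with -0.36 (both chosen after their values were seen). By the operation log ratio, Apoa4 probe 662 was the 22nd lowest of all probes. Averages over array pairs with opposite dyes, in which a dye effect of equal size cancels, ranged from -0.44 to -0.36 for this probe over the 4 such pairs.

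The other Apoa4 probe, 459, gave a different pattern. Its deposited log ratios were -1.30, 0.70, -1.40 and 1.26 on arrays 1 to 4. It was low on both arrays with the ligated pool in Cy5 and high on both with that pool in Cy3, with no overlap between the dye orientations. Its operation log ratio was -0.19 ± 0.09 (limma adjusted p = 0.256; 95% interval -0.36 to -0.018). Pair averages were -0.30 and -0.35 with array 2 but -0.020 and -0.068 with array 4. Probe 459 lies in block 4, 1 of 16 runs of consecutive probe numbers. Blocks 3 and 4 held 71 of the 93 lower calls (76.3%) with 12.5% of all probes. After the dye effect was taken out as a curve within each block its estimate was -0.046 ± 0.04 (adjusted p = 0.550), while probe 662, in block 6, kept -0.37 ± 0.04 (adjusted p = 7.02e-05). With 1 curve per array instead, without blocks, probe 662 had -0.34 ± 0.05 and did not pass (limma adjusted p = 0.103). In that fit 0 of all probes were called lower, so the call depended on which curve was used.

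**Figure D1:**
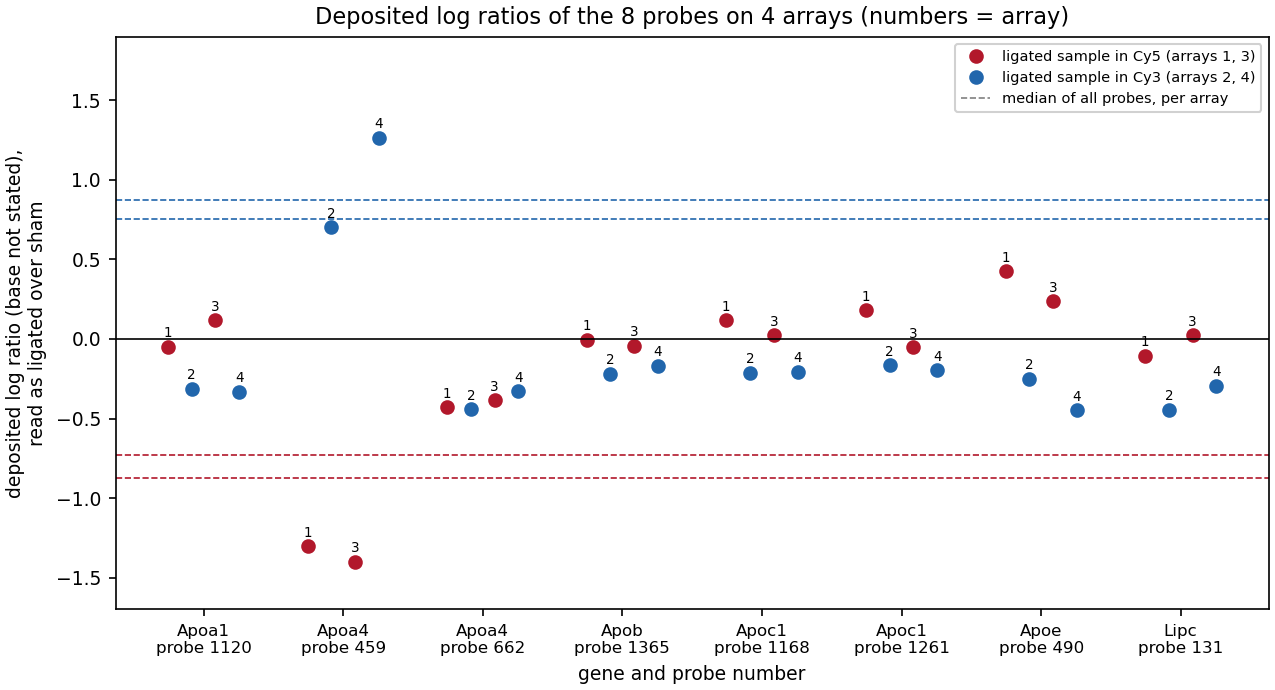
Deposited log ratios of the 8 probes (vertical axis, base not stated, ligated over sham) by gene and probe, with the array number above each point, red for the ligated pool in Cy5, blue for Cy3, and dashed lines at the array medians over all probes. Apoa4 probe 662 sits between -0.44 and -0.33 on all 4 arrays, whereas Apoa4 probe 459 goes from -1.40 to 1.26 with the dye.

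The centred values of probe 662 minus those of probe 459 were 0.87 and 1.02 on arrays 1 and 3 and -1.14 and -1.59 on arrays 2 and 4. The mean difference was -0.21, and its SD of 1.35 over arrays follows the dye. An exact two-sided sign-flip permutation test over arrays (p = 0.750) takes that dye effect into its spread, so it says nothing about a difference of this size in the operation. Averaged over array pairs with opposite dyes, the probes differed by -0.13, -0.36, -0.063 and -0.29, below 0 for 4 of 4 pairs, which share arrays and were not tested. The dye contrast, the mean of arrays 1 and 3 minus that of arrays 2 and 4 divided by 2, was -0.011 for probe 662 and -1.17 for probe 459 on deposited values. Over 699 same-gene probe pairs of 340 genes, the median distance in dye contrast was 0.31, and 62 pairs (8.87%) were farther apart than the Apoa4 probes, at 1.16. In the operation log ratio the Apoa4 probes were 0.21 apart, a distance that 105 of those pairs (15.0%) exceeded. With its probes averaged, Apoa4 had an operation log ratio of -0.29 ± 0.08 (limma over 958 genes, adjusted p = 0.0293). This average includes probe 459, whose estimate of -0.19 shrank to -0.046 once the block-wise dye curve was removed. The gene value is therefore not separate evidence of a fall beyond probe 662. A gene average with that curve removed was not tested.

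Hepatic lipase (Lipc) had the next lowest estimate. The deposited log ratios of probe 131 were -0.11, -0.44, 0.024 and -0.30 on arrays 1 to 4. Arrays 1 and 3 were near 0 and arrays 2 and 4 lower, with no overlap between them. The operation log ratio was -0.21 ± 0.08, which did not pass (limma adjusted p = 0.154), with a 95% interval of -0.38 to -0.044. With the dye curve per block taken out, Lipc had -0.082 ± 0.03 (adjusted p = 0.207; 95% interval -0.16 to -0.0053). Pair averages were below 0 for all 4 opposite-dye pairs, from -0.27 to -0.14.

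Apoa1 probe 1120 had -0.050, -0.31, 0.12 and -0.33 on arrays 1 to 4. Here too the arrays with the ligated pool in Cy3 were the low ones. The operation log ratio was -0.15 ± 0.08 (adjusted p = 0.458; 95% interval -0.32 to 0.018), and with the dye curve per block taken out it was -0.080 ± 0.04 (adjusted p = 0.256). Its pair averages ran from -0.19 to -0.098.

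Apob probe 1365 had -0.0064, -0.22, -0.042 and -0.17 on arrays 1 to 4. With Apoa4 probe 662 it made up the 2 of 8 probes that were below 0 on every array as deposited. That pattern was shown by 115 of all probes (5.94%), against 0.981% above 0 on every array. Of those 115 probes, 110 were among the 484 above the third quartile of all probes in dye contrast, where 7 of the 8 probes also lay. The operation log ratio of Apob was -0.11 ± 0.08 (limma adjusted p = 0.693), its 95% interval ran from -0.28 to 0.054, and its pair averages ranged from -0.13 to -0.087. With the dye curve per block taken out, Apob had -0.062 ± 0.04 (adjusted p = 0.370).

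Both Apoc1 probes gave nearly the same values. Probe 1168 had deposited log ratios of 0.12, -0.21, 0.023 and -0.21 on arrays 1 to 4, and probe 1261 had 0.18, -0.16, -0.051 and -0.20. Their operation log ratios were -0.074 ± 0.08 and -0.062 ± 0.09 (adjusted p = 0.923 and 0.955), with 95% intervals of -0.24 to 0.093 and -0.23 to 0.11. With the dye curve per block taken out they were -0.0084 ± 0.04 and 0.0092 ± 0.03 (adjusted p = 0.937 and 0.922). The probes differed by 0.012 on average (SD 0.061 over arrays; exact sign-flip permutation p = 0.875, where 4 arrays allow no p below 0.125), and of the 699 same-gene pairs 96.1% were farther apart in dye contrast. Probes of 1 gene could therefore be close on this array, as for Apoc1, or far apart, as for Apoa4.

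Apoe probe 490 had 0.43, -0.25, 0.24 and -0.45 on arrays 1 to 4. It was high on both arrays with the ligated pool in Cy5 and low on both with it in Cy3. The operation log ratio was -0.013 ± 0.09 (adjusted p = 0.991; 95% interval -0.18 to 0.16), and the pair averages lay on both sides of 0, from -0.10 to 0.089. In order of the operation log ratio, the genes after Apoa4 were Lipc, Apoa1, Apob, Apoc1 and Apoe. Their intervals overlapped between every pair of neighbours in that order. Overlap is not a test of a difference, and differences between genes within arrays were not tested. No order among these 5 genes is therefore claimed.

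**Figure D2:**
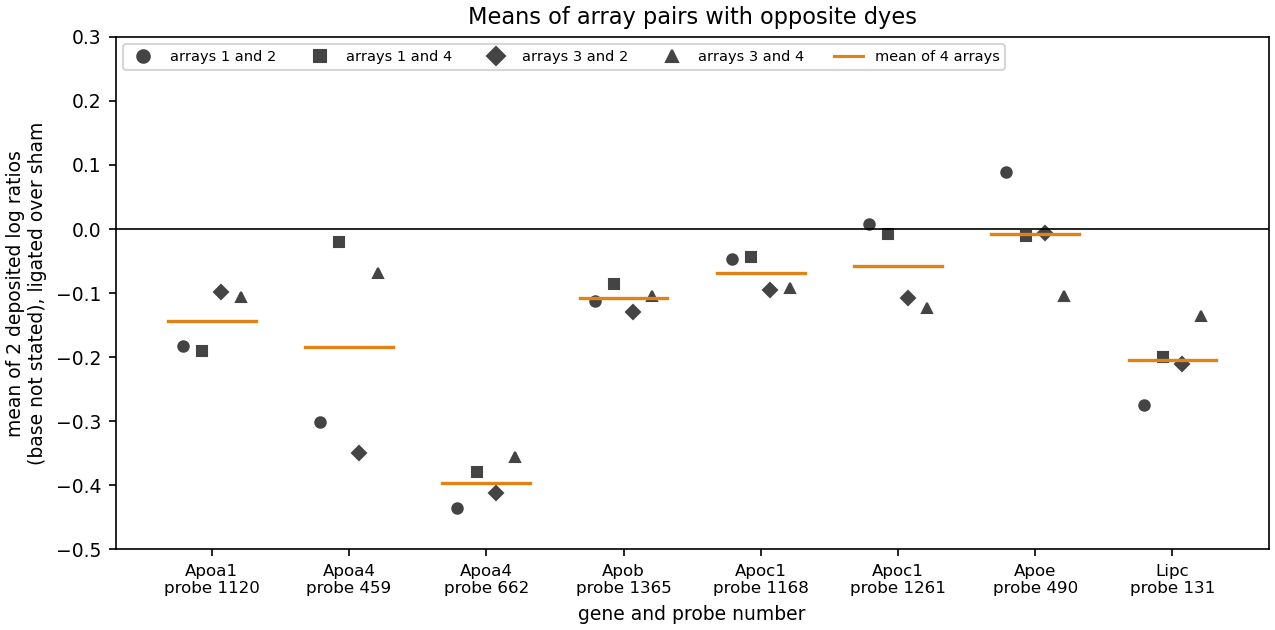
Averages of the deposited log ratios (vertical axis, base not stated, ligated over sham) of 2 arrays with opposite dyes, for each probe, with a symbol for each pair of arrays and an orange line at the mean of all 4 arrays. Apoa4 probe 662 lies lowest, from -0.44 to -0.36, and 6 of the 8 probes are below 0 for all 4 pairs. The pairs share arrays, and how many of all probes show this pattern was not counted, so it is not read as a trait of the 8.

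The 8 operation log ratios were all below 0 on centred values, with a median of -0.13, and 60.3% of all probes were below 0, with a median of -0.020. After the dye curve per block, 6 of 8 were below 0, with a median of -0.054, against 48.9% of all probes and a median of 0.0017. On that scale 1 of the 8 probes was called lower, Apoa4 probe 662, against 3.46% of all probes, and 0 were called higher, against 3.51%. As deposited, without centring, 0 of the 8 probes were called, while 3 of all probes (0.155%) were called higher and 0 lower. Apoa4 probe 662 then had -0.40 ± 0.05 with an unadjusted p of 0.000681 (limma adjusted p = 0.120). The estimate hardly moved, and limma's prior went from 76.2 to 2.60 degrees of freedom beside the 2 that each probe has of its own.

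**Figure D3:**
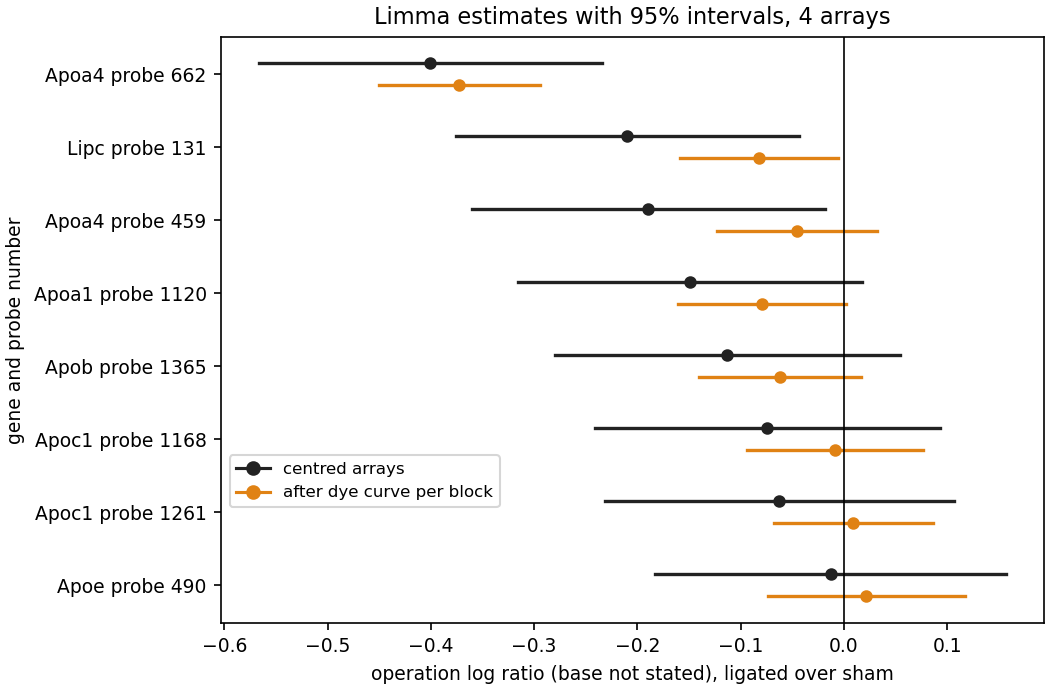
Operation log ratios (horizontal axis, base not stated, ligated over sham) with 95% intervals from limma over 4 arrays, in black on centred arrays and in orange after the dye curve per block. Apoa4 probe 662 lies farthest from 0 on both scales, with -0.57 to -0.23 and -0.45 to -0.29. The Lipc intervals also exclude 0 on both scales, at -0.38 to -0.044 and -0.16 to -0.0053. The intervals are not adjusted for the number of probes, and the dye curve per array is not shown.

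The rule did not use the dye, and in their dye contrast the probes were much alike. For 7 of the 8 the dye contrast as deposited lay between -0.011 and 0.34, while the median over all probes was -0.81 and the third quartile -0.13. Apoe, at 0.34, was above 99.0% of all probes, Apoa1 (0.18) above 94.9%, Lipc (0.16) above 94.1% and Apoa4 probe 662 above 81.5%. Only Apoa4 probe 459, at -1.17, lay below the median. Of the 8 probes, 3 changed sign fully with the dye orientation, against 78.8% of all probes. The 484 probes above the third quartile in dye contrast had a median operation log ratio of -0.076, and 74.8% of them were below 0. On centred values 49 of these 484 were called lower and 6 higher, and after the dye curve per block 43 lower and 34 higher. The part of this shared position in the negative estimates of Lipc, Apoa1, Apob, Apoc1 and Apoe was not tested beyond the dye curve, after which Apoe and 1 of the 2 Apoc1 probes were above 0, at 0.022 and 0.0092.

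**Figure D4:**
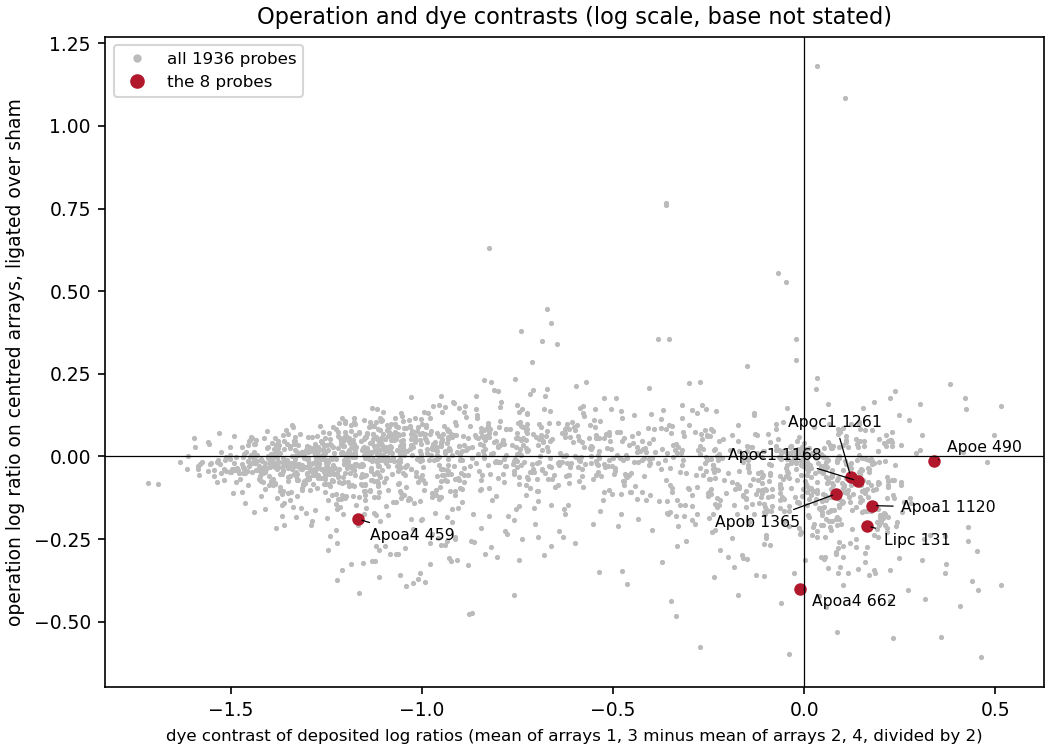
Operation log ratio on centred arrays (vertical axis, ligated over sham) against the dye contrast of deposited values (horizontal axis), both on the deposited log scale with base not stated, for all 1936 probes in grey and the 8 probes in red. Of the 8, 7 lie near a dye contrast of 0, from -0.011 to 0.34, and Apoa4 probe 459 lies at -1.17 among the bulk of the array.

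If every array were instead read as Cy5 over Cy3, the dye contrast would become the operation. On centred values 7 of the 8 probes would then be called higher, from 0.80 for Apoa4 probe 662 to 1.15 for Apoe, and Apoa4 probe 459 lower, at -0.36, with 816 probes higher and 783 lower over the whole array. The deposited values of probe 662 share a sign on all arrays and lie between -0.44 and -0.33, so its positive value in that reading comes with the centring: the same contrast was -0.011 without it.

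Single arrays decided whether the Apoa4 probes passed. They moved the estimate of probe 662 little and that of probe 459 much. Without replicate 1 or 3, probe 662 had -0.43 ± 0.14 and -0.37 ± 0.14 and did not pass (limma adjusted p = 0.162 and 0.619), and without replicate 2 or 4 it had -0.40 ± 0.09 in both fits and passed (0.000312 and 6.4e-05). Such fits leave 1 residual degree of freedom and give all probes 1 common SE, which is larger when replicate 1 or 3 is left out. Probe 459 ranged from -0.30 without replicate 4, the 1 such fit in which it passed (adjusted p = 0.00585), to -0.078 without replicate 2. Left out in turn, single arrays gave -0.16 to -0.067 for Apob, -0.13 to -0.013 for Apoc1 probe 1168, -0.18 to -0.11 for Apoa1 and -0.22 to -0.20 for Lipc, and none of these passed.

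Other genes of lipoprotein handling were sparse on the array. Of 60 listed genes, 10 were measured by 14 probes, and 1 probe fell and 0 rose, against 4.80% and 0.930% of all probes. The one that fell was probe 246 of Scarb1, the receptor that takes cholesterol from high-density lipoprotein into hepatocytes. Its deposited log ratios were -0.61, -0.63, -1.02 and 0.34 on arrays 1 to 4, and array 4 was the one above 0. Its operation log ratio was -0.48 ± 0.09 (limma adjusted p = 0.000188). Probe 246 lies in block 3, and after the dye curve per block Scarb1 had -0.22 ± 0.06 and did not pass (adjusted p = 0.0625). It also did not pass without replicate 2 (-0.27, adjusted p = 0.0580) or replicate 3 (-0.34, adjusted p = 0.844).

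The other 13 probes of that list had operation log ratios from -0.19 to 0.076, and none passed on centred values or after the dye curve per block. The lowest was probe 1533 of P4hb, protein disulfide isomerase, which is also the small subunit of the protein that loads lipid onto ApoB. It had -0.099, -0.29, -0.13 and -0.24 on arrays 1 to 4, below 0 on every array, with an operation log ratio of -0.19 ± 0.08 (adjusted p = 0.210), and -0.13 ± 0.04 with an adjusted p of 0.0561 once the dye curve per block was removed. Paraoxonase 1 (Pon1), an enzyme carried on high-density lipoprotein, had -0.11 ± 0.08 and -0.071 ± 0.08 at probes 656 and 804, whose dye contrasts were 0.13 and -1.13, a gap like that of the Apoa4 probes. Lipoprotein lipase (Lpl) had -0.063 ± 0.08 and the liver X receptor Nr1h2 had -0.10 ± 0.08. The median of the 14 probes was -0.069, and -0.018 after the dye curve per block.

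Markers of liver cell types were read in the same way, as ratios. Beside their counts, 4.80% of all probes were called lower and 0.930% higher on centred values. After the dye curve per block the shares were 3.46% and 3.51%. Of 17 hepatocyte genes, 6 were measured by 14 probes, with a median of -0.045 and 1 probe lower, in block 3 (fibrinogen gamma, Fgg, -0.39, and -0.023 after the dye curve per block). After that curve 1 hepatocyte probe was lower, of transthyretin (Ttr, -0.17 ± 0.04, adjusted p = 0.0265), and 1 of 7 Cyp2e1 probes higher (0.15 ± 0.04, adjusted p = 0.0341). Of the stellate and fibroblast markers 2 genes were measured, by 3 probes from 0.095 to 0.34 (median 0.18), and 1 probe of collagen Col1a1 rose (0.34 ± 0.08, adjusted p = 0.00526). Of the blood markers 2 genes were measured by 4 probes with a median of 0.082. Of these, 1 probe of Pf4 fell on centred values (-0.30 ± 0.09) but had -0.050 with the dye curve per block removed. The other Pf4 probe had 0.14 and did not pass. The 2 cholangiocyte and 3 endothelial genes measured had 0 calls, with estimates from 0.047 to 0.095 and from -0.21 to -0.12. Macrophage and intestinal markers had 0 probes. The part of these shifts in the Apoa4 result was not tested.

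By Euclidean distance over the 4 centred values, the single-symbol probes of other genes nearest to each of the 6 genes were listed. Centred values hold the dye contrast as well as the operation (0.99 and -0.15 for Apoa1). A short distance can thus come from a shared dye contrast and is not read as a shared response to ligation. The median distance over all such probes ran from 1.21 for Apoa4 to 2.26 for Apoe. Around Apoa4, with probes averaged, they were Tlr3, Slc31a1 and Cltc, at 0.33 to 0.40, farther than for the other 5 genes. Taken by itself, a step added after the values were seen, probe 662 lay nearest to Prdx6 (0.20), Fasn, the fatty acid synthase (0.22), and the plasma protease inhibitor Serpina3n (0.24), and probe 459 lay nearest to probe 422 of Cyp8b1 (0.049), a bile acid synthesis enzyme, which is also in block 4. The nearest were Ywhaz, Slco2b1 and Gc for Apoa1 (0.093 to 0.11). They were Mt1, a metallothionein, Ces1e and Hmgn3 for Apob (0.065 to 0.079), and Aurkaip1, transferrin (Tf) and Atp5pb for Apoc1 (0.052 to 0.079). For Apoe they were Cks1b, Sod1 and Itih3 (0.24 to 0.29), and for Lipc Hao2, Icam1 and Slc38a3 (0.089 to 0.13).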

How the data were processed

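Two-colour cDNA arrays were hybridised with Cy3- and Cy5-labelled cDNA from poly(A) RNA of pooled livers, per the labels' protocols. The authors deposited 1 log ratio per probe and array for 1936 probes (0 missing); no source used here gives its base, scanner, background correction or normalization. Without spot intensities no dim probe could be filtered, and having 4 arrays limits precision.

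Of the probes, 1432 had 1 symbol in the platform annotation, 19 several and 485 none; 1429 matched RefSeq (GRCr8) by gene ID, 3 did not. Arrays were median-centred and fitted with operation and dye terms in limma 3.58.1 (R 4.3.3), with Benjamini-Hochberg adjustment over all probes. The dye curve was a lowess (span 0.667) of each array on the dye contrast, within 16 blocks of 121 consecutive probe numbers; blocks are inferred from probe numbers. Tested on simulated data for this comparison (1936 probes, 200 changed), the centred fit recovered 94.0% of changes of 0.4 and 26.9% of 0.2. The simulated noise had 1 common SD for all probes and no shift by block, unlike these arrays, so the rates hold for those conditions only.

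Named were all probes of the 6 genes, probes of the pathway list past the threshold, and the 3 nearest probes per gene; others were chosen after their values were seen. The members, lists and settings were chosen with earlier results of these data known. Alternatives were no centring, equal scale, no dye term, the Cy5 over Cy3 reading, quantile normalization, a robust prior, averaged probes, dye curves, leaving out blocks 3 and 4 or each array, and exact sign-flip tests.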

Additional observations from a re-analysis of the deposited data

How the results depend on the processing

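Limits: 4 arrays of pooled RNA, 2 residual degrees of freedom per probe, an unstated log base and a division of channels that is likely but not stated. Apoa4 probe 662 stayed below 0 in every alternative except the Cy5 over Cy3 reading (0.80). Its call was lost without centring (-0.40, limma adjusted p = 0.120), without the dye term (-0.40, 1), after quantile normalization (-0.34, 0.0906), after the dye curve per array (-0.34, 0.103) and without replicate 1 or 3. It held with equal scale, a robust prior, the dye curve per block and without blocks 3 and 4 (adjusted p from 2.36e-06 to 0.00291). With probes averaged, the value joins both Apoa4 probes (-0.29, limma adjusted p = 0.0293), so it is not a call of probe 662 alone. Exact sign-flip permutation tests, which cannot go below 0.125, gave 0.50 on centred and 0.125 on deposited values, the latter added after the data were seen. On centred values the dye effect enters the spread of that test, so its result says nothing about a fall of this size. The causes of lost calls were not tested.

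The count of the 8 probes called lower was 1, 0 without centring, without the dye term, after quantile normalization and after the dye curve per array, and 0 to 2 with a replicate left out. The count called higher was 0, and 7 in the Cy5 over Cy3 reading. For the lipoprotein pathway list the lower count was 1, 7 in the Cy5 over Cy3 reading (6 higher), and 0 without centring, without the dye term, after quantile normalization, with a robust prior, after either dye curve and without blocks 3 and 4, where Scarb1 is not tested; it was 0 to 1 with a replicate left out.

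Over all probes, 93 were called lower and 18 higher. The lower count was 0 without centring, 47 with equal scale, 783 in the Cy5 over Cy3 reading, 0 without the dye term, 3 after quantile normalization, 49 with a robust prior, 28 of 958 genes with probes averaged, 0 after the dye curve per array, 38 without blocks 3 and 4 and 4 to 202 with a replicate left out. The higher count was 3 without centring, 816 in the Cy5 over Cy3 reading, 0 without the dye term, 9 after quantile normalization, 7 after the dye curve per array, 68 after the dye curve per block and 6 to 39 with a replicate left out. Where limma called 0 probes in both directions, without the dye term, 5 had an unadjusted p under 0.05.

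Signs turned only for probes that did not pass, besides the Cy5 over Cy3 reading, which gave 0.99 for Apoa1, 0.80 for Apoa4 probe 662, 0.89 for Apob, 0.95 and 0.93 for Apoc1 probes 1168 and 1261, 1.15 for Apoe and 0.97 for Lipc. Quantile normalization gave 0.015 and 0.019 for Apoc1 probes 1168 and 1261 and 0.060 for Apoe, the dye curve per array 0.0056, 0.015 and 0.090, and the dye curve per block 0.0092 for Apoc1 probe 1261 and 0.022 for Apoe. With a replicate left out, Apoc1 probe 1261 ranged from -0.16 to 0.032 and Apoe from -0.097 to 0.071. No paired analysis was possible because all arrays form 1 group and each already holds both pools.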
